A study of Mus musculus with 6 samples.

Results

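The Fc, C-type lectin and Toll-like receptors of myeloid cells, with the adaptors that carry their signals, were examined in skin of YAP2-5SA-∆C mice and wild type littermates. The set held 10 genes of the 26579 in the count table. They were found by name and Ensembl identifier and were chosen with earlier results of these data known. They were the Fc gamma receptors *Fcgr1*, *Fcgr2b*, *Fcgr3* and *Fcgr4*, the adaptors *Fcer1g* and *Tyrobp*, the receptors *Trem2* and *Clec7a*, and the Toll-like receptors *Tlr2* and *Tlr4*. All 10 were found in the table and all 10 passed the filter on low counts.

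The libraries came from whole skin punch biopsies of the dorsal neck of female mice at 33 days of age. The 3 transgenic mice carried YAP2-5SA-∆C, a mildly activated mutant of the Hippo pathway effector YAP expressed in basal keratinocytes, and showed the early outward signs of the phenotype. The 3 control mice were wild type littermates without the transgene. The promoter of the transgene and the genetic background were not given in the sources used here. Each library was 1 mouse, and no group was treated.

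Fc receptors bind the constant part of antibodies and so let macrophages, neutrophils and mast cells respond to particles that antibodies have coated. Most activating Fc receptors have no signalling tail of their own and depend on the adaptor Fcer1g, whereas TREM2 and related receptors depend on the adaptor DAP12, the product of *Tyrobp*. Both adaptors carry an ITAM, a tyrosine motif that recruits the kinase SYK once SRC family kinases have phosphorylated it. The lectin Dectin-1, the product of *Clec7a*, binds fungal beta-glucan and signals through SYK and CARD9, while Toll-like receptors bind microbial products and signal through MYD88. In skin these receptors are known mainly from resident macrophages, dendritic cells and mast cells, and from monocytes and neutrophils that enter inflamed tissue.

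All 10 genes were at a higher level in each of the 3 YAP2-5SA-∆C libraries than in any of the 3 wild type libraries. Such a separation in this direction was found for 15.5% of the 15102 genes tested, and the opposite separation for 18.2%. The log2 fold changes (YAP2-5SA-∆C over wild type) of the 10 genes ranged from 0.25 for *Tlr4* to 1.56 for *Fcgr4*, with a median of 0.76 against a median of -0.01 over all genes tested. *Tyrobp* was the 1 gene of the 10 called by edgeR's quasi-likelihood test at an FDR of 0.05, a test in which 1.44% of all genes tested were called higher. A further 8 genes had an FDR between 0.05 and 0.1. In all, 9 of the 10 were therefore below 0.1, where 7.26% of all genes tested were found with a higher level, and the exception was *Tlr4*. The same 9 had an unadjusted p under 0.05, where 13.3% of all genes tested were higher. The call depended on the test. The likelihood-ratio test of edgeR called 8 of the 10 higher (5.52% of all genes tested) and the Wald test of DESeq2 called 6 (6.48% of the 14807 genes it gave an FDR), whereas voom called 1 (1.23%). These counts include *Fcgr4*, which passed the filter on low counts through the transgenic libraries alone, and *Trem2*, which reached the minimum in 1 wild type library. For both, a higher level in YAP2-5SA-∆C skin helped to decide that they were tested. The 10 genes, like the lists below, were also chosen with earlier results of these data known. The counts and the median over the 10 genes, and their distance from the shares of all genes, are therefore a description only.

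**Figure D1:**
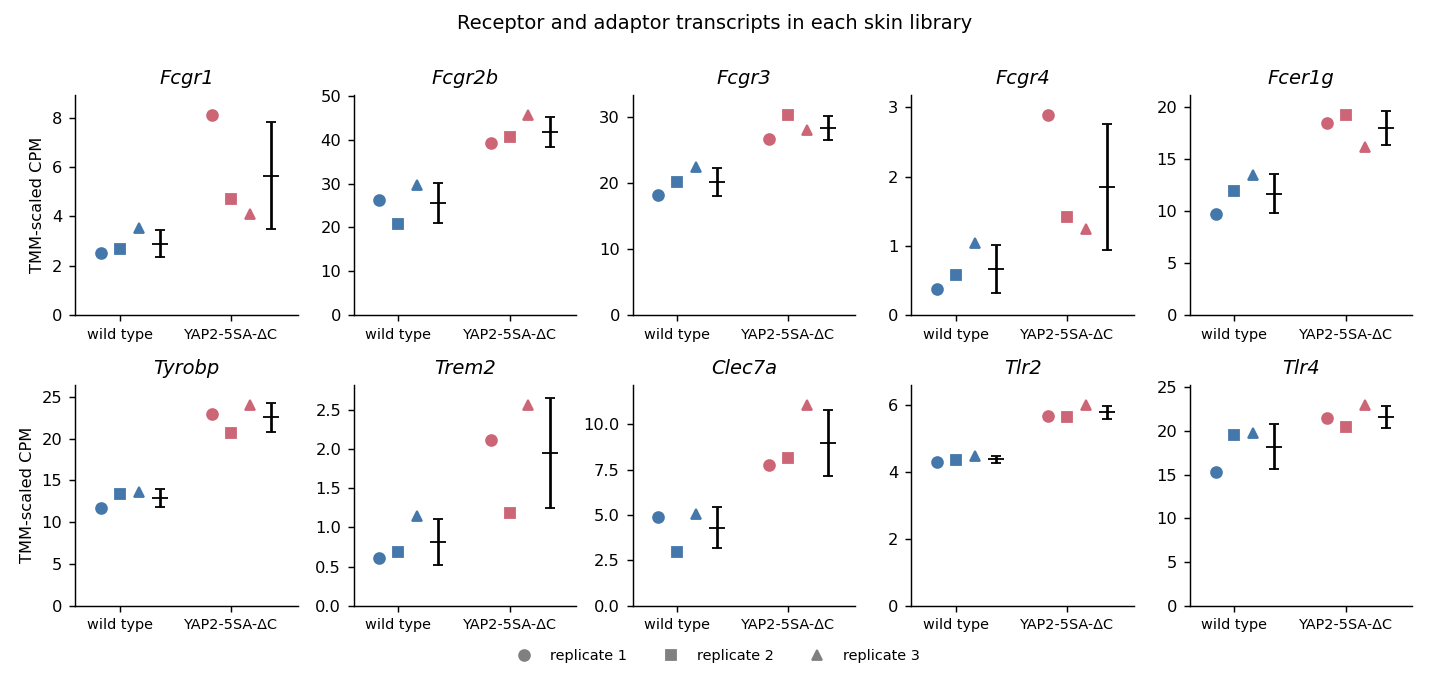
TMM-scaled CPM (counts scaled to library size, vertical axes from 0, a separate scale for each gene) of the 10 genes in the 3 wild type (blue) and 3 YAP2-5SA-∆C (red) libraries, with the marker shape giving the replicate number and the black bars the mean ± SD of each genotype. The red points lie above the blue points in each of the 10 panels, with a wide spread for *Fcgr1*, *Fcgr4* and *Trem2* and a narrow one for *Tlr2*.

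Total counts per library ranged from 11225705, in wild type replicate 3, to 19505036. Levels are given as CPM, the counts scaled to library size, after TMM scaling and always in the order of replicates 1, 2 and 3. Keratinocyte genes were abundant, as the labelled tissue implies, with a summed level of 6 basal keratinocyte markers of 3538 to 4277 CPM in wild type and of 5824 to 7419 CPM in YAP2-5SA-∆C skin. *Yap1* itself did not separate the genotypes (log2 fold change 0.06, FDR 0.635), and it is unknown if transgene reads were assigned to this mouse gene. The library of YAP2-5SA-∆C replicate 2 stood apart. Over all genes tested, its root mean square difference in log2 CPM was 0.493 from replicate 1 and 0.527 from replicate 3, which differed from each other by 0.309. Within wild type, replicate 1 was 0.393 from replicate 2 and 0.367 from replicate 3, which were 0.277 apart, and its distance to transgenic replicates 3 (0.393) and 1 (0.400) was close to that to replicate 2 of its own genotype. Without wild type replicate 1, 1 of the 10 genes was called, where 0.822% of all genes were called higher. Without transgenic replicate 2, the quasi-likelihood test called 3 of the 9 genes of the set still tested, namely *Fcgr2b*, *Tyrobp* and *Trem2*, against 2.72% of all genes called higher in that fit.

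Promoter sequence was read for the 8 of the 10 genes that were in the RefSeq table of GRCm38.p6, from 250 bases before to 50 bases after each start (10 promoters). *Tyrobp* and *Tlr4* were not among them. The 6 letters GAGGAA, the core recognised by the myeloid transcription factor PU.1, were searched on both strands and occurred in a promoter of 5 of the 8 genes. Over all 27025 genes of the table the share was 31.3%. The letters GGAATG, the core recognised by the TEAD partners of YAP, occurred on either strand in a promoter of none of the 8 genes and of 16.6% of all genes of the table. The matches are shown because the 5 genes that hold them include 3 of the 4 Fc gamma receptors. Each line gives 30 bases of GRCm38.p6 in the direction of the gene, with the matched letters in capitals, and TTCCTC is GAGGAA read on the other strand.
Fcgr1, chr3:96294007-96294036, minus strand: atggcaacttccTTCCTCttttctaatctt
Fcgr3, chr1:171059392-171059421, minus strand: gagtccatttccTTCCTCtttttgtagttc
Fcgr4, chr1:171018892-171018921, plus strand: aaggctatttacTTCCTCtcttctagtcaa
Trem2, chr17:48346349-48346378, plus strand: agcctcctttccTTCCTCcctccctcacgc
Clec7a, chr6:129472858-129472887, minus strand: aaacaggatctaGAGGAAaaaagggaaatt
Counted from the start, the match lay at -55 to -50 in *Fcgr1*, at -22 to -17 in *Fcgr4* and at -40 to -35 in *Trem2*. *Fcgr3* and *Clec7a* had more than 1 start in the table, which placed the match of *Fcgr3* at -15 to -10 or -6 to -1 and that of *Clec7a* at -96 to -91 or -90 to -85. A match is a stretch of letters and not a measured binding site, and a promoter without one may hold other forms of the motif. For the TEAD letters, 8 genes are too few to tell none from a share of 16.6%. The paper cites work that placed YAP/TEAD motifs in enhancers more than in promoters, and it searched 3′ UTRs. Neither was searched here, and regulation by PU.1 or TEAD was not tested.

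Among the Fc gamma receptors, *Fcgr2b* and *Fcgr3* were the abundant ones and *Fcgr1* and *Fcgr4* the scarce ones with the larger fold changes. *Fcgr2b* (chr1:170958617-170976547, minus strand of GRCm38) encodes the one inhibitory receptor of the family, whose tail carries an ITIM that recruits the lipid phosphatase SHIP. It was at 26.3, 20.8 and 29.7 CPM in wild type and at 39.2, 40.5 and 45.7 CPM in YAP2-5SA-∆C skin. The highest wild type library, replicate 3, was thus well below the lowest transgenic one. In edgeR's quasi-likelihood fit this was a log2 fold change of 0.71 (standard error, SE, 0.14, FDR 0.0511), just outside the threshold of 0.05. The FDR ranged from 0.000134 to 0.178 over 16 alternative settings, of which 8 placed it below 0.05, among them the fit without YAP2-5SA-∆C replicate 2 (0.0381). The gene overlaps the antisense gene *Gm38204*, and since the strand setting of the counting was not given, reads of the pair cannot be told apart.

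*Fcgr3* (chr1:171051174-171064935, minus strand) encodes a low-affinity activating receptor that pairs with Fcer1g on macrophages, neutrophils, mast cells and natural killer cells. Its levels were 18.2, 20.2 and 22.5 CPM in wild type and 26.8, 30.4 and 28.0 CPM in YAP2-5SA-∆C skin, with little spread within either genotype. The fitted difference was 0.49 on the log2 scale (SE 0.10, FDR 0.0539). *Fcgr3* and *Fcgr2b* are near-identical over part of their extracellular domains. Of the 75-base words of *Fcgr3* exons, 94 (5.42%) also occurred in *Fcgr2b* exons, so read pairs lying wholly within that stretch could not be mapped uniquely and were not counted. Of the words of *Fcgr2b*, 313 (5.43%) recurred in another gene, those 94 among them, and the other 8 genes shared none with another annotated gene.

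*Fcgr1* (chr3:96282909-96293969, minus strand) encodes the high-affinity receptor for IgG of monocytes and macrophages, a gene known to respond to interferon gamma. It was at 2.53, 2.67 and 3.52 CPM in wild type and at 8.12, 4.71 and 4.12 CPM in YAP2-5SA-∆C skin. Replicate 1 of the transgenic mice stood far above the others, which lay only a little above the wild type range. EdgeR's quasi-likelihood test gave 0.98 as the log2 fold change (SE 0.29, FDR 0.0936), and the estimate lay between 0.64 and 1.16 when 1 library at a time was left out. Its levels rested on 37 to 51 counts in a wild type library and on 66 to 146 counts in a transgenic one.

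*Fcgr4* (chr1:171018920-171029761, plus strand) encodes an activating receptor of intermediate affinity found on monocytes, macrophages and neutrophils. Its levels were 0.385, 0.576 and 1.05 CPM in wild type and 2.89, 1.41 and 1.25 CPM in YAP2-5SA-∆C skin, again highest in transgenic replicate 1. This was the lowest of the 4 receptors, with 7 to 11 counts in a wild type library and 20 to 52 in a transgenic one. It passed the filter through the 3 transgenic libraries alone, and when any of these was left out it was no longer tested, so a higher level in YAP2-5SA-∆C skin was a condition of its being tested. Its log2 fold change of 1.56 (SE 0.47) came with an FDR of 0.0998 by edgeR's quasi-likelihood test. The FDR ranged from 0.000649, by the likelihood-ratio test, to 0.269 over the 12 alternatives in which it was tested, and only the first of these placed it below 0.05.

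The balance of activating and inhibitory Fc gamma receptors was compared as the summed CPM of *Fcgr1*, *Fcgr3* and *Fcgr4* divided by that of *Fcgr2b*. The ratio was 0.802, 1.13 and 0.910 in wild type and 0.965, 0.901 and 0.731 in YAP2-5SA-∆C skin, so the genotypes overlapped. On the log2 scale the difference was -0.12 (two-sided exact permutation test, p = 0.5, where 3 mice against 3 cannot give less than 0.1). With *Fcgr3* left out of the sum the difference was 0.30 (two-sided exact permutation test, p = 0.6), and its sign then rested on transgenic replicate 1, whose ratio of 0.281 lay above the 0.151 and 0.118 of the other transgenic libraries and the 0.111 to 0.156 of wild type.

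The adaptor *Tyrobp* (chr7:30413760-30417585, plus strand) rose in YAP2-5SA-∆C skin. It was at 11.7, 13.3 and 13.6 CPM in wild type (mean 12.9 ± 1.06, SD, n = 3) and at 22.9, 20.7 and 24.0 CPM in YAP2-5SA-∆C skin (mean 22.5 ± 1.69, SD, n = 3). Both genotypes were tight, and the gap between them exceeded the range within either. The log2 fold change was 0.81 (SE 0.10), and the FDR was 0.0300 by edgeR's quasi-likelihood test, 0.0362 by voom and 2.41e-06 by DESeq2. The estimate itself stayed between 0.75 and 0.89 whichever library was left out, but the quasi-likelihood FDR did not. Leaving out replicate 2 or 3 of wild type gave 0.172 or 0.116, and leaving out replicate 1 or 3 of the transgenic mice gave 0.0585 or 0.0906, all above the threshold. Leaving out replicate 1 of wild type gave 0.0448 and replicate 2 of the transgenic mice 0.0128. Over all 16 alternative settings the FDR ranged from 2.41e-06 to 0.172, and 11 placed it below 0.05.

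*Fcer1g* (chr1:171229572-171234365, minus strand), the common gamma chain shared by the activating Fc receptors for IgG and IgE, lies on the same stretch of chromosome 1 as 3 of the Fc gamma receptors. Its levels were 9.67, 11.9 and 13.4 CPM in wild type and 18.5, 19.2 and 16.2 CPM in YAP2-5SA-∆C skin. The lowest transgenic library, replicate 3, was still above the highest wild type one. In edgeR's quasi-likelihood fit this was a log2 fold change of 0.63 (SE 0.14, FDR 0.0608), and the FDR was below 0.05 in 3 of 16 alternative settings, those with the likelihood-ratio test, DESeq2 and scaling by library totals alone.

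*Trem2* (chr17:48346401-48354147, plus strand) encodes a lipid-binding receptor of macrophages, microglia and osteoclasts that signals through DAP12. It was scarce, with 0.605, 0.680 and 1.14 CPM in wild type and 2.11, 1.18 and 2.56 CPM in YAP2-5SA-∆C skin, from 11 to 13 counts and from 20 to 41 counts respectively. Transgenic replicate 2 was only just above wild type replicate 3, and the other transgenic libraries were well clear of it. The fitted difference was 1.33 on the log2 scale (SE 0.38, FDR 0.0882), and without transgenic replicate 2 it was 1.61 with an FDR of 0.0344. Over the 16 alternatives the FDR ranged from 0.00161 to 0.254. Wild type replicate 3 was the 1 wild type library that reached the minimum of 1 CPM before TMM scaling, so this gene also passed the filter only with the help of the transgenic libraries.

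*Clec7a* (chr6:129461591-129472779, minus strand), which encodes Dectin-1 and which GENCODE M21 lists as a polymorphic pseudogene, was at 4.89, 2.98 and 5.04 CPM in wild type. In YAP2-5SA-∆C skin it was at 7.73, 8.12 and 11.1 CPM. Wild type replicate 2 was the low library and transgenic replicate 3 the high one. EdgeR's quasi-likelihood test gave 1.07 as the log2 fold change (SE 0.24, FDR 0.0615), and the FDR ranged from 0.000202 to 0.190 over 16 alternative settings, of which 3 placed it below 0.05.

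The 2 Toll-like receptors had the smallest fold changes of the set. *Tlr2* (chr3:83836272-83841767, minus strand), which binds bacterial lipoproteins together with TLR1 or TLR6, was at 4.29, 4.34 and 4.47 CPM in wild type and at 5.67, 5.65 and 5.99 CPM in YAP2-5SA-∆C skin. It had the least spread of the 10 genes, and the log2 fold change was 0.40 (SE 0.11, FDR 0.0805 by edgeR's quasi-likelihood test). In the likelihood-ratio test and DESeq2 the FDR of *Tlr2* was 0.215 and 0.252, and no alternative placed it below 0.05. *Tlr4* (chr4:66827584-66930284, plus strand), the receptor for lipopolysaccharide, was at 15.3, 19.6 and 19.8 CPM in wild type and at 21.5, 20.5 and 23.0 CPM in YAP2-5SA-∆C skin. The genotypes were separated only by the gap between 19.8 and 20.5 CPM. In edgeR's quasi-likelihood fit this was a log2 fold change of 0.25 (SE 0.12, FDR 0.225).

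**Figure D2:**
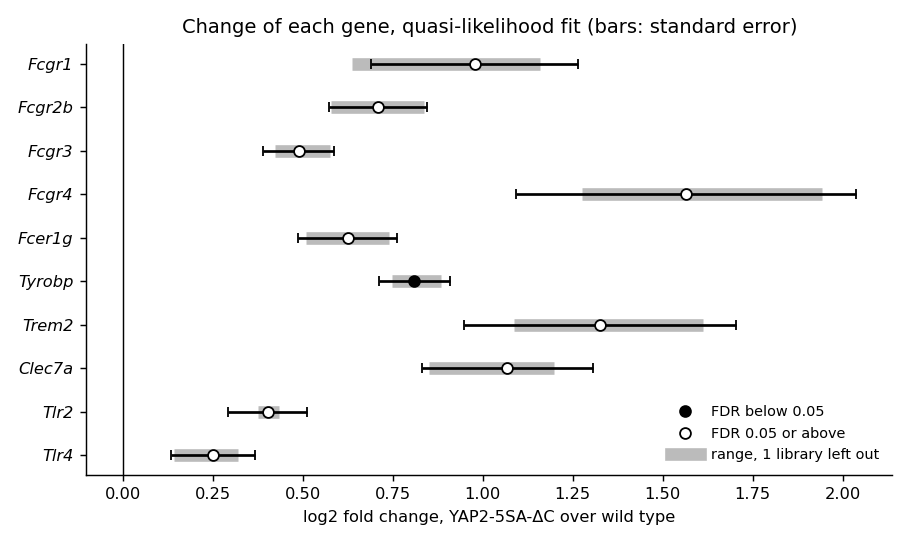
Log2 fold change (YAP2-5SA-∆C over wild type, horizontal axis) of each gene in edgeR's quasi-likelihood fit, with black bars for the standard error, grey bars for the range of the estimate when 1 library at a time was left out, and a filled point where the FDR was below 0.05. *Tyrobp* (0.81) is the 1 filled point, *Fcgr4* (1.56) and *Trem2* (1.33) have the largest estimates and wide bars, and no grey bar reaches 0.

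Per kilobase of exon, the levels spanned a wide range and the adaptors came first. In wild type the order was *Tyrobp* (19.3 ± 1.59 CPM per kb, SD, n = 3), *Fcer1g* (13.4 ± 2.15), *Fcgr3* (11.7 ± 1.23), *Fcgr2b* (4.42 ± 0.776), *Tlr4* (3.28 ± 0.458), *Clec7a* (1.63 ± 0.435), *Tlr2* (1.45 ± 0.0311), *Fcgr1* (1.12 ± 0.207), *Fcgr4* (0.533 ± 0.271) and *Trem2* (0.164 ± 0.0588). Neighbours whose libraries overlapped in this order were *Fcer1g* with *Fcgr3* and *Clec7a* with *Tlr2*. In YAP2-5SA-∆C skin the same measure gave 33.8 CPM per kb for *Tyrobp*, 16.4 for *Fcgr3*, 7.22 for *Fcgr2b* and 3.40 for *Clec7a*. *Fcgr1* (2.18 CPM per kb) came before *Tlr2* (1.92 CPM per kb) there, but their libraries overlapped. The last place of *Trem2* depended on the length used. With the longest coding transcript (1088 bases) in place of all annotated exons (4946 bases), an alternative chosen after seeing the data, its level was 0.744 CPM per kb in wild type and 1.79 CPM per kb in YAP2-5SA-∆C skin. This was above that of *Fcgr4*, with overlapping libraries in both genotypes. By this length *Tyrobp* stayed first, but in wild type its libraries (19.5 to 22.8 CPM per kb) then overlapped those of *Fcer1g* (14.2 to 19.6). The wild type libraries of *Fcgr1* and *Trem2* overlapped as well.

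**Figure D3:**
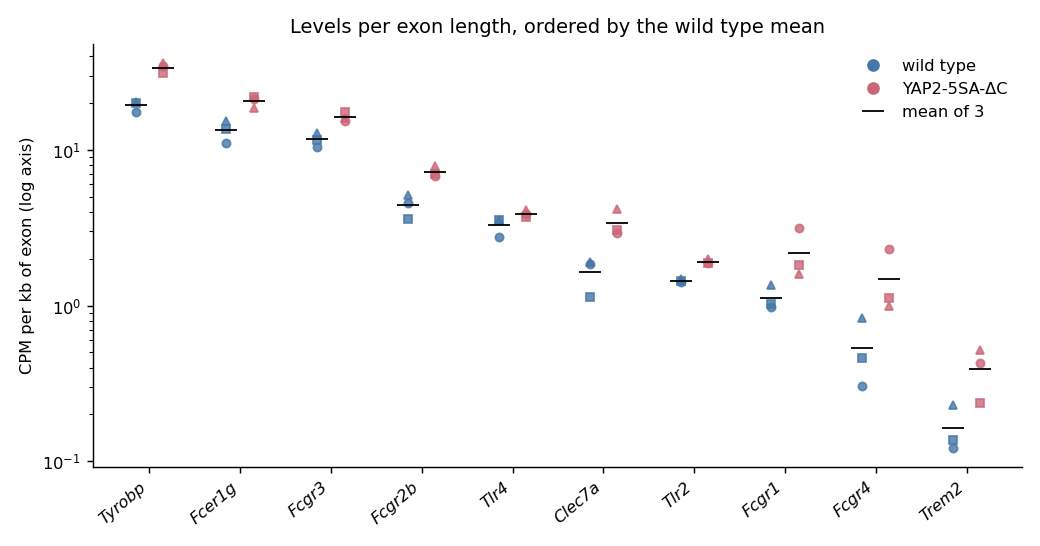
Level of each gene in CPM per kilobase of annotated exon (vertical log axis) in the wild type (blue) and YAP2-5SA-∆C (red) libraries, with black lines for the means of 3 and genes ordered by the wild type mean. *Tyrobp*, *Fcer1g* and *Fcgr3* lie above 10 CPM per kb in each library, and *Trem2*, at 0.164 CPM per kb in wild type, is the lowest.

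The order of the libraries was shared within wild type and split within YAP2-5SA-∆C skin. Within wild type, replicate 3 had the highest level of all 10 genes, whereas it was the highest wild type library for 30.6% of all genes tested, and replicate 1 had the lowest level of 8 of the 10. Within YAP2-5SA-∆C skin, 2 genes were highest in replicate 1 (*Fcgr1* and *Fcgr4*), 2 in replicate 2 (*Fcgr3* and *Fcer1g*) and 6 in replicate 3. On the log2(CPM + 0.5) scale, *Fcgr1* and *Fcgr4* exceeded their wild type mean by 1.35 and 1.58 in transgenic replicate 1 but by 0.45 and 0.62 in replicate 3. *Tyrobp* exceeded its own by 0.81, 0.67 and 0.88 and *Fcgr3* by 0.40, 0.58 and 0.46 in replicates 1, 2 and 3, which is an even difference.

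Several partner receptors were high in transgenic replicates 1 and 3 and lower in replicate 2. *Clec4e*, which encodes the mycobacterial glycolipid receptor Mincle and needs Fcer1g, was at 0.605, 0.523 and 0.190 CPM in wild type and at 4.34, 0.765 and 2.75 CPM in YAP2-5SA-∆C skin. *Trem1*, a DAP12-coupled receptor of neutrophils and monocytes, was at 0.385, 0 and 0.0951 CPM in wild type and at 2.50, 0.353 and 1.69 CPM in YAP2-5SA-∆C skin. In both genes transgenic replicates 1 and 3 were high and replicate 2 was close to wild type, and neither gene passed the filter, so neither was tested. *Cd14*, the co-receptor that hands lipopolysaccharide to TLR4, had the same order, with 1.87, 1.78 and 2.19 CPM in wild type and 6.79, 3.41 and 6.43 CPM in YAP2-5SA-∆C skin. Its log2 fold change was 1.52 (SE 0.28), and the FDR by edgeR's quasi-likelihood test was 0.0504, or 0.00824 without transgenic replicate 2 and 0.0800 to 0.190 without any other single library. *Tlr1*, the partner of TLR2, was at 1.54, 1.88 and 1.81 CPM in wild type and at 5.23, 2.88 and 3.99 CPM in YAP2-5SA-∆C skin, with a log2 fold change of 1.21 (FDR 0.0547 by the same test, 0.0175 without transgenic replicate 2 and 0.0824 to 0.190 without any other single library).

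**Figure D4:**
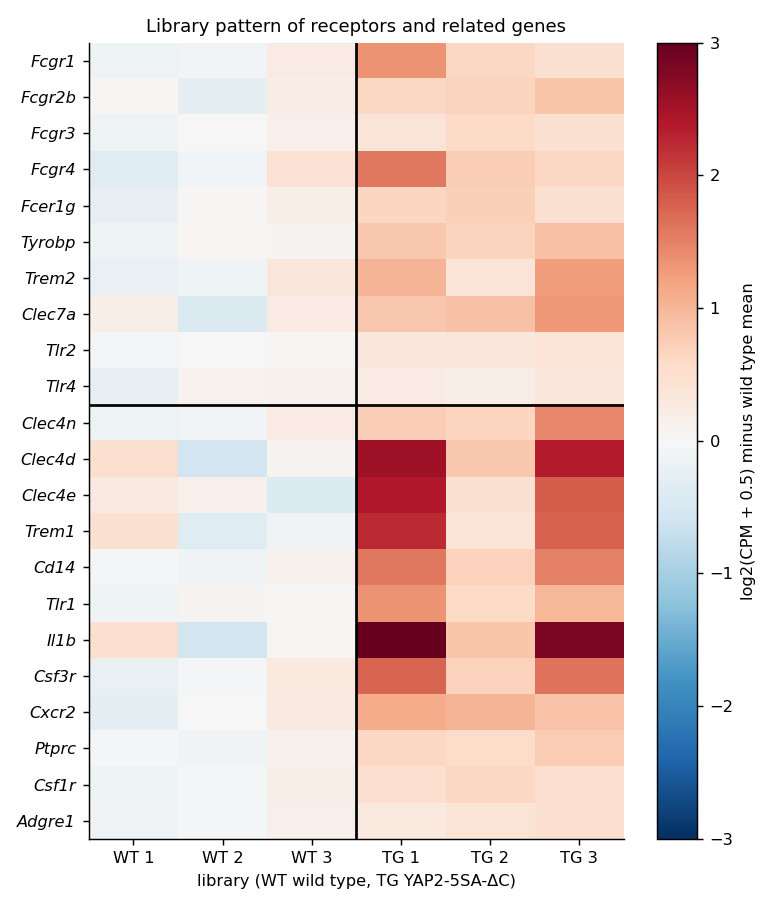
Heatmap of log2(CPM + 0.5) minus the wild type mean (colour scale, -3 to 3) for the 10 genes (above the line) and for related receptors and marker genes (below it, chosen after their values were seen) in the 3 wild type (WT) and 3 YAP2-5SA-∆C (TG) libraries. *Clec4d*, *Clec4e*, *Trem1* and *Il1b* are dark red in TG 1 and TG 3 and pale in TG 2, whereas *Fcgr2b*, *Fcgr3*, *Fcer1g* and *Tyrobp* are of nearly even colour over the 3 TG libraries, and the value of *Il1b* in TG 1 (3.25) lies just past the end of the scale.

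The signalling genes downstream of ITAM receptors were counted next, from lists that hold none of the 10 genes. Of 15 tested genes of ITAM signalling, 5 rose and none fell, where 1.44% of all genes tested were called higher, and the median log2 fold change was 0.50. The likelihood-ratio test called 8 of the 15 higher (5.52% of all genes tested), DESeq2 9 (6.48%) and voom 5 (1.23%), and 12 were higher at an unadjusted quasi-likelihood p under 0.05 (13.3%). The 5 were *Vav1*, a guanine nucleotide exchange factor (0.84, FDR 0.0300), the SRC family kinases *Fgr* (1.07, FDR 0.0437) and *Lyn* (0.50, FDR 0.0457), the scaffold *Lcp2* (0.68, FDR 0.0437) and the lipid kinase subunit *Pik3cd* (0.57, FDR 0.0437), all in edgeR's quasi-likelihood test. *Syk* itself was at 26.6, 29.9 and 32.6 CPM in wild type and at 30.5, 35.1 and 35.1 CPM in YAP2-5SA-∆C skin, an overlap of the genotypes (log2 fold change 0.18, FDR 0.295). *Card9*, which couples Dectin-1 and SYK to NF-kappaB, had a log2 fold change of 0.81 with an FDR of 0.0652.

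Genes that restrain these receptors were also among those called. Of 11 tested inhibitory receptors and phosphatases, 3 rose and none fell (1.44% of all genes tested were called higher), with a median of 0.48. The likelihood-ratio test called 4 of the 11 higher (5.52% of all genes), DESeq2 3 (6.48%) and voom 3 (1.23%), and at an unadjusted quasi-likelihood p under 0.05 there were 7 higher (13.3%) and 1 lower. The 7 include *Lair1*, with 16, 19 and 11 counts in wild type, which reached 1 CPM before TMM scaling in the transgenic libraries alone. A higher level there was a condition of its being tested. *Inpp5d*, which encodes the phosphatase SHIP that acts at Fcgr2b, was at 18.1, 14.8 and 16.8 CPM in wild type and at 26.4, 25.4 and 28.7 CPM in YAP2-5SA-∆C skin (log2 fold change 0.69, FDR 0.0398 in edgeR's quasi-likelihood test). *Ptpn6*, which encodes the tyrosine phosphatase SHP-1, had a log2 fold change of 0.48 (FDR 0.0442), and the inhibitory immunoglobulin-like receptor *Pirb* one of 0.66 (FDR 0.0437).

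For the other receptors of the same families the count depended on the test. Over all genes tested, the share called higher was 1.44% by the quasi-likelihood test, 5.52% by the likelihood-ratio test, 6.48% by DESeq2 and 1.23% by voom, and 13.3% were higher at an unadjusted quasi-likelihood p under 0.05. None of 5 other Fc receptors passed in edgeR's quasi-likelihood test, voom or DESeq2, although 3 had an unadjusted quasi-likelihood p under 0.05 and the likelihood-ratio test called 1. *Ms4a2*, the beta chain of the IgE receptor of mast cells, had a log2 fold change of 0.91 (FDR 0.0576), and *Fcgrt*, the neonatal Fc receptor that many cell types express, had 0.18 (FDR 0.264). *Fcer1a*, the alpha chain, was not tested, with at most 0.385 CPM in wild type and 0.556 to 1.19 CPM in YAP2-5SA-∆C skin. Of 20 other C-type lectin receptors, 1 rose, the mannose receptor *Mrc1* (log2 fold change 0.54, FDR 0.0341), while *Clec4n*, which encodes Dectin-2, had 1.12 with an FDR of 0.0657. The likelihood-ratio test called 7 of these lectins higher, DESeq2 6 and voom 1, and 11 had an unadjusted quasi-likelihood p under 0.05. Of 8 tested genes listed as other TREM and DAP12-coupled receptors, 2 rose. They were *Csf1r*, the receptor for macrophage colony-stimulating factor (0.54, FDR 0.0456), and *Cd300ld* (0.93, FDR 0.0456). The list is a loose grouping, and use of DAP12 was not tested for either gene. The likelihood-ratio test called 5 of the 8, DESeq2 3 and voom 1, and 6 had an unadjusted quasi-likelihood p under 0.05.

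For the Toll-like receptor pathway the counts were 0 of 8 other Toll-like receptors, 0 of 9 co-receptors and chaperones, and 0 of 24 signalling genes in edgeR's quasi-likelihood test and in voom (1.44% and 1.23% of all genes tested were called higher). At an unadjusted quasi-likelihood p under 0.05 they were 6, 5 and 9, all with a higher level (13.3% of all genes tested were higher at this p), and the likelihood-ratio test called 4, 2 and 0 (5.52% of all genes) and DESeq2 3, 3 and 1 (6.48%). The medians of these lists were 0.58, 0.35 and 0.09, so the signalling list lay closest to the median of all genes tested. *Myd88* had a log2 fold change of 0.33 (FDR 0.0657), *Ly96*, the part of the TLR4 complex that binds lipopolysaccharide, one of 0.49 (FDR 0.129) and *Tlr6* one of 0.52 (FDR 0.286). Of 8 inflammatory target genes tested, 1 rose, *Ptgs2*, the inducible cyclooxygenase, at 3.63, 2.67 and 2.19 CPM in wild type and 16.3, 7.12 and 13.0 CPM in YAP2-5SA-∆C skin (log2 fold change 2.09, FDR 0.0419). The likelihood-ratio test and DESeq2 each called 4 of the 8 higher and voom none, and 6 were higher at an unadjusted quasi-likelihood p under 0.05. The study itself chose *Ptgs2* and *Ptprc* for RT-PCR from its results on these libraries, so they are not independent of them. Over all pathway lists, 12 of the 108 tested genes (of 140 in the table) rose and none fell by this or the other 3 tests, with a median of 0.36, where 1.44% of all genes tested were called higher. At an unadjusted quasi-likelihood p under 0.05, 65 of the 108 were higher and 1 lower, where 13.3% of all genes tested were higher and 26.3% passed in either direction. The 65 include *Lair1*, which was tested only because of its level in the transgenic libraries. The lists were also chosen with earlier results of these data known, so their counts and medians are a description only. The quasi-likelihood count was 3 without wild type replicate 1 (0.822% of all genes in that fit), 1 without transgenic replicate 1 (0.51%) and 21 without transgenic replicate 2 (2.72%). It was 0, like the count of all genes called higher, when replicate 2 or 3 of wild type or replicate 3 of the transgenic mice was left out.

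**Figure D5:**
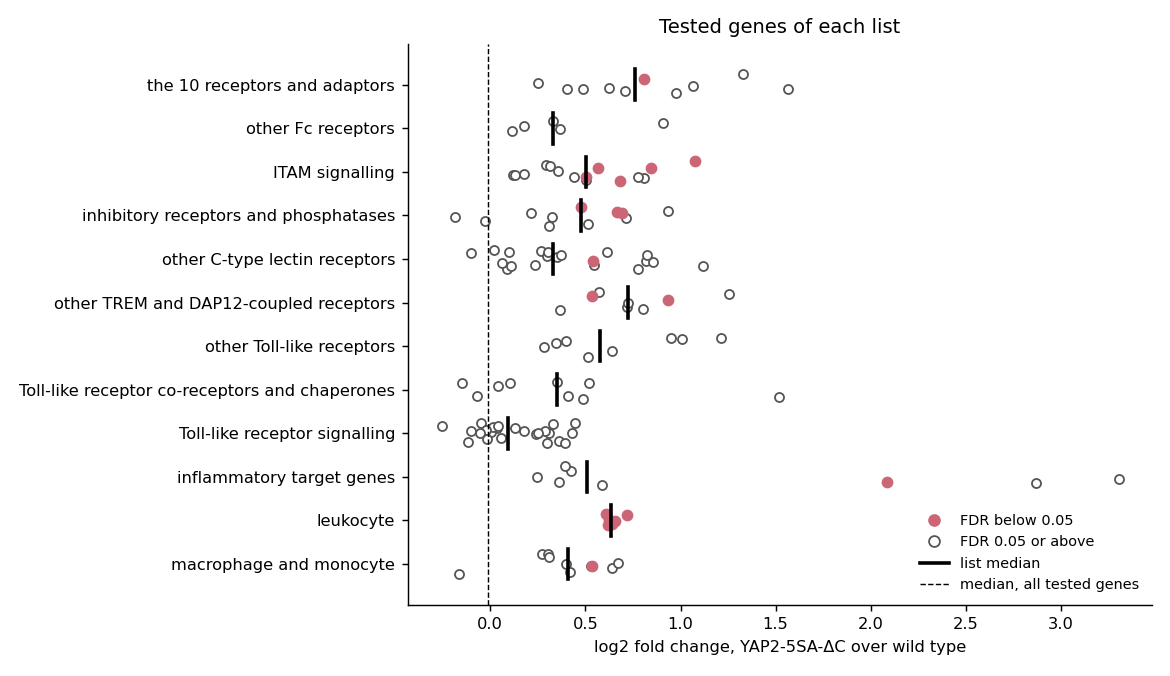
Log2 fold change (YAP2-5SA-∆C over wild type, horizontal axis) of each tested gene of the 10-gene set, the pathway lists and 2 marker lists, with filled points for an FDR below 0.05, thick lines for list medians and a dashed line for the median of all tested genes (-0.01). The set (median 0.76) and the list of other TREM and DAP12-coupled receptors lie farthest to the right, the Toll-like receptor signalling list (0.09) lies close to the dashed line, and the 6 leukocyte markers are all filled.

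General leukocyte markers moved with the receptors. All 6 rose (1.44% of all genes tested were called higher), with a median log2 fold change of 0.63 and a summed level of 153 to 166 CPM in wild type and of 239 to 264 CPM in YAP2-5SA-∆C skin. *Ptprc*, which encodes the common leukocyte antigen CD45, had 0.65 (FDR 0.0340 in edgeR's quasi-likelihood test). Its FDR by this test was 0.0132 without transgenic replicate 2 and 0.0583 to 0.177 without any other single library. Of 10 macrophage and monocyte markers 1 rose, *Csf1r*, while 3 were called higher by the likelihood-ratio test (5.52% of all genes tested), 5 by DESeq2 (6.48%) and 1 by voom (1.23%). At an unadjusted quasi-likelihood p under 0.05 there were 7 higher (13.3% of all genes), and 8 lay higher without overlap between the genotypes (15.5%). Their median was 0.41 and their sum ranged from 333 to 414 CPM in wild type and from 476 to 503 CPM in YAP2-5SA-∆C skin. The macrophage marker *Adgre1* was at 28.7, 30.0 and 34.7 CPM in wild type and at 38.2, 41.2 and 43.6 CPM in YAP2-5SA-∆C skin (log2 fold change 0.40, FDR 0.0635). In bulk skin RNA, a change in the number of cells of a type and a change in RNA per cell cannot be told apart.

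Other cell types that carry these receptors were checked in the same way. Both tested neutrophil markers of 7 in the table had high fold changes, *Cxcr2* (1.05, FDR 0.0400 in edgeR's quasi-likelihood test) and *Csf3r* (1.53, FDR 0.0530), and both were called by the likelihood-ratio test and DESeq2 and 1 by voom. Their list summed to 8.91 to 13.3 CPM in wild type and to 20.8 to 30.0 CPM in YAP2-5SA-∆C skin. The granule genes *Mpo*, *Elane*, *Ngp*, *Camp* and *Retnlg* did not exceed 0.834 CPM in any library, and *Ngp* was at 0 in 5 of the 6. Of 7 tested mast cell markers 2 rose, *Hdc* (1.45, FDR 0.0300) and *Cma1* (0.59, FDR 0.0467), and of 7 tested dendritic and Langerhans cell markers 2 rose, the integrin *Itgax* (0.82) and the class II invariant chain *Cd74* (0.62), where 1.44% of all genes tested were called higher. The mast cell and the dendritic lists had 6 and 4 genes called higher by the likelihood-ratio test (5.52% of all genes), 5 and 4 by DESeq2 (6.48%) and 1 and 2 by voom (1.23%), and 6 and 5 at an unadjusted quasi-likelihood p under 0.05 (13.3%). None of 5 tested T cell markers and not the 1 tested NK cell marker passed in edgeR's quasi-likelihood or likelihood-ratio test, voom or DESeq2, and none had an unadjusted quasi-likelihood p under 0.05. The T cell markers still had a median log2 fold change of 0.44, with all 5 above 0. Their list summed to 58.4 to 88.3 CPM in wild type and to 84.5 to 128 CPM in YAP2-5SA-∆C skin, an overlap. The NK cell marker had 0.15. No B cell marker passed the filter.

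Markers of the other cells of skin were read from the same fit. Of the 6 basal keratinocyte markers, whose sums are given above, *Krt14* rose (log2 fold change 0.95, FDR 0.0300 in edgeR's quasi-likelihood test), 3 were called higher by the likelihood-ratio test (5.52% of all genes tested), 5 by DESeq2 (6.48%) and 1 by voom (1.23%), and the median was 0.56. Of 4 erythroid markers none passed the quasi-likelihood test or voom, and 2 were called lower by the likelihood-ratio test and by DESeq2 (4.87% and 4.26% of all genes tested), with 2 lower at an unadjusted quasi-likelihood p under 0.05 and a median of -0.83. The 5 skeletal muscle markers summed to 1096 to 5871 CPM in wild type and to 987 to 2781 CPM in YAP2-5SA-∆C skin, an overlap, with a median of -1.12 and none past any of these tests. The medians were 0.42 for suprabasal keratinocyte, 0.27 for fibroblast, 0.26 for endothelial and 0.04 for adipocyte markers, and none of these passed the quasi-likelihood test or voom. In the same order of lists, 1, 0, 0 and 0 genes were called higher by the likelihood-ratio test, 1, 2, 0 and 0 by DESeq2 and 1, 3, 2 and 0 at an unadjusted quasi-likelihood p under 0.05 (13.3% of all genes). The part of these cell types and of those above in the levels of the 10 genes was not tested.

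The summed level of the 10 genes was set against that of the markers in each library. Divided by the macrophage and monocyte markers, it was 0.282, 0.257 and 0.276 in wild type and 0.326, 0.303 and 0.323 in YAP2-5SA-∆C skin. The genotypes did not overlap, with a log2 difference of 0.23 (p = 0.1 by a two-sided exact permutation test, which is the lowest value this design can reach). Divided by the leukocyte markers, the ratio was 0.588, 0.634 and 0.688 in wild type and 0.642, 0.638 and 0.613 in YAP2-5SA-∆C skin, which overlapped (log2 difference -0.01, two-sided exact permutation test, p = 1). The sums weight the abundant genes *Fcgr2b*, *Fcgr3*, *Tyrobp* and *Tlr4* most.

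The 5 genes whose profile over the 6 libraries was nearest to the mean profile of the set were *Ccl9*, *Spi1*, *Ms4a7*, *Msr1* and *Gm1966*. Nearness was the root mean square difference of centred log2 CPM, which was 0.0351 for *Ccl9*, a macrophage chemokine, and 0.0790 for *Spi1*, the gene of the transcription factor PU.1. It was 0.0815 for *Ms4a7*, 0.0822 for the scavenger receptor *Msr1* and 0.0915 for *Gm1966*. Among the 10 genes themselves, *Tyrobp* was nearest to the mean profile (0.105) and *Fcgr4* farthest (0.472).

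The chromosomal neighbours of the receptors were read from the same fit, within 500 kb on either side. Over all genes tested, 47.6% had a log2 fold change above 0 and 1.44% were called higher. Around the stretch of chromosome 1 that holds *Fcgr2b*, *Fcgr4*, *Fcgr3* and *Fcer1g*, 27 other genes were tested, with a median log2 fold change of -0.01. Of these, 2 were called, both higher, *Cd244a* (0.95, FDR 0.0401 in edgeR's quasi-likelihood test), a receptor of natural killer cells and other leukocytes, and *Arhgap30* (0.66, FDR 0.0420). Around *Clec7a*, in the C-type lectin cluster of chromosome 6, 12 other genes were tested, 10 had a log2 fold change above 0, the median was 0.56 and 1 was called, *Clec2f* (1.19, FDR 0.0437). Some of these 12 are receptors already counted in the pathway lists above. The medians were -0.07 over 41 neighbours of *Fcgr1*, 0.01 over 35 of *Tyrobp* (1 called, *Nfkbid*, an inhibitor of the NF-kappaB family, 1.34, FDR 0.0398), 0.13 over 5 of *Trem2* and -0.26 over 4 of *Tlr2*, and no neighbour of *Tlr4* was tested.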

How the data were processed

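RNA-Seq of 6 skin libraries, 1 per mouse, was analysed from the raw counts per Ensembl gene that the authors deposited. The authors mapped 75-base paired-end reads to GRCm38 with Tophat2 (2.0.12 in the submitters' processing notes) and Bowtie2 (2.1.0) and counted uniquely mapped reads with HTSeq-count, so that reads of near-identical stretches are lost. The annotation release and strand setting were not given in the sources used here. The labels name a kit for total RNA, whereas the methods describe mRNA libraries.

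Groups were taken from the sample labels and columns from their names. Genes that reached 1 CPM in 3 or more libraries were kept and TMM-scaled. The main test was the quasi-likelihood test of edgeR 4.0.16 in R 4.3.3 with genotype as the only term and Benjamini-Hochberg adjustment over all 15102 genes (FDR). It was tried on counts simulated from fitted dispersions, with no library set apart. Such counts cannot show how the FDR behaves with a library that stands apart, as in these data. The standard error was the log2 fold change divided by the square root of F. Alternatives were other scalings and filters, the likelihood-ratio test that the study used, voom (limma 3.58.1), DESeq2 1.42.0, an earlier quasi-likelihood form, a replicate block and fits that each left out 1 library. Exact permutation tests were two-sided.

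Named were the 10 genes, up to 4 called genes of lowest p from each pathway list, fixed partner and marker genes and the 5 nearest profiles. The fifth called ITAM gene, *Lyn*, the called neighbours, the markers given outside those lists, *Lair1*, *Gm38204* and the heatmap genes below the line were named after their values were seen. The 10 genes and all lists were chosen with earlier results of these data known. Positions, exons and names were taken from GENCODE M21 on GRCm38, promoters from RefSeq. Replicates differed by more than sampling noise (chi-square per degree of freedom at least 13.4). The p-values measure the spread between mice.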

Additional observations from a re-analysis of the deposited data

How the results depend on the processing

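All 10 genes of the set kept a log2 fold change above 0 under each of the 16 alternatives in which they were tested. The median of the set stayed between 0.64 and 0.85 when 1 library at a time was left out. The calls were less stable. Genes of the set called numbered 1 in the main test, 2 with RLE scaling and with the earlier quasi-likelihood form, 3 with upper-quartile scaling, 4 with library totals alone and without a low-count filter, 6 with DESeq2, 8 with the likelihood-ratio test, and 0 to 3 when 1 library was left out. Over all genes tested the calls numbered 288 (75.7% higher), against 444 with library totals alone, 497 without a filter, 1568 with the likelihood-ratio test (53.1% higher), 1590 with DESeq2 (60.3% higher) and 0 to 816 when 1 library was left out (49.9% higher at 816, without YAP2-5SA-∆C replicate 2). Pathway genes called numbered 12, against 35 with the likelihood-ratio test, 32 with DESeq2 and 0 to 21 when 1 library was left out.

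The replicate numbers were not found to pair the mice (correlations of same-numbered deviations -0.332, -0.228 and -0.0501), and no replicate of one genotype correlated best with its own number. With a replicate block, 0 genes, 0 genes of the set and 0 pathway genes were called in edgeR's quasi-likelihood test, with 2949, 9 and 53 at an unadjusted p under 0.05. The 3 fits without a call, those that left out replicate 2 or replicate 3 of wild type or replicate 3 of the transgenic mice, had 2725, 2844 and 3692 genes at an unadjusted p under 0.05, of which 9, 9 and 8 were of the set. Without YAP2-5SA-∆C replicate 1, 0 genes of the set were called, with 8 at an unadjusted p under 0.05. Fewer samples enter the fits that leave out a library, but not the fit with a replicate block. The fit without YAP2-5SA-∆C replicate 2 also has fewer samples, and it called 816 genes. The reason for the lost calls was not tested.

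The log2 difference of the activating to inhibitory ratio was -0.12, with a range of -0.24 to 0.01 when 1 library was left out, and 0.30 without *Fcgr3*. That of the set relative to macrophage markers was 0.23, with a range of 0.19 to 0.26, and -0.010 relative to leukocyte markers. The cause was not tested. Counting precision limits *Fcgr4* and *Trem2* most.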
